A study of Camelina sativa with 12 samples.

Results

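In salt-treated camelina, 102 genes had a root transcript level of 0.333 times the control or less while their level in shoots stayed close to the control. They were chosen by measured values. The mean was at least 5 CPM in control roots and in control shoots. CPM, the unit of the deposited table, is counts scaled to the size of the library, and the authors also describe a further normalization. The ratio of the salt root mean to the control root mean was at most 0.333. The ratio of the salt shoot mean to the control shoot mean was between 0.67 and 1.5. The table lists 49932 genes, of which 27688 met the minimum of 5 CPM in both control tissues. The falls in roots and the steady levels in shoots given here are therefore descriptions of what selected the genes, and no test is made of them. The text of the study names 7 of the 102 genes. The other 95 are not named there, and only 2 of these are given by their ID. For the annotation of its differentially expressed genes the study refers to a supplement, from which no name was taken.

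The plants were Camelina sativa DH55, an oilseed of the Brassicaceae, grown in pots in a growth chamber. Roots and shoots were harvested 28 days after planting from control plants watered with tap water and from plants watered for 21 days with 192 mM NaCl, a solution with an electrical conductivity of 15 dS per m. These times are those of the labels and of the RNA methods, while the general account of plant growth in the study gives a later start of the salt, so the exposure may have been shorter. The 4 groups were control roots, salt roots, control shoots and salt shoots, with 3 biological replicates each, which gave 12 libraries, labelled as polyA RNA. No transgene or other genotype was used, and the sources used here do not say how many plants were pooled for a library.

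Camelina is a polyploid, and many of its genes are present as homeologues, the copies of a gene in its sub-genomes. The roots are the organ in contact with the saline solution, and they control how much sodium and chloride enters the plant and passes to the shoot. Among the named genes are those encoding chloride channel B (CLC-B), whose Arabidopsis counterpart is an anion transporter of the vacuolar membrane, sterol methyltransferase 3 (SMT3), an enzyme of the sterol pathway from which brassinosteroids are also made, and the ethylene-response-type transcription factors Ethylene and Salt induced 3 (ESE3) and ERF105. No sequence of these genes was read here.

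The tissue labels were checked by marker genes. The summed level of 3 genes encoding the small chain of Rubisco, the carbon-fixing enzyme of leaves, was 17954 to 19779 CPM in control shoots and 9568 to 12079 CPM in salt shoots, against 12 to 29 CPM in control roots and 72 to 196 CPM in salt roots. A chlorophyll-binding protein of photosystem II was at 52 to 117 CPM in shoots, at 0 in all control roots and at 3 to 5 CPM in salt roots. Ethylene Insensitive Root 1, an auxin transport gene of roots, was at 11 to 18 CPM in control roots, at 4 CPM in every salt root library and at 1 to 2 CPM in shoots. These leaf transcripts were thus higher in salt roots than in control roots, the direction opposite to that of the selected genes. The study names them as raised in roots and reports other photosystem genes as lower there. The part of leaf transcripts in the ratios was not tested. In bulk tissue, fewer cells of a type and less RNA per cell cannot be told apart.

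Genes lowered in roots were mostly lowered in shoots too. Among the 27688 genes at 5 CPM or more in both control tissues, 970 (3.50%) had a root ratio of 0.333 or less. In shoots, 851 of these (87.7%) had a ratio below 0.67, 547 of them a ratio of 0.333 or less, and 17 (1.75%) had a ratio above 1.5. The 102 selected genes are the remaining 10.5%. A shoot ratio between 0.67 and 1.5 was found for 65.3% of all 27688 genes. The selected genes are thus a minority of the root-lowered genes.

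**Figure D1:**
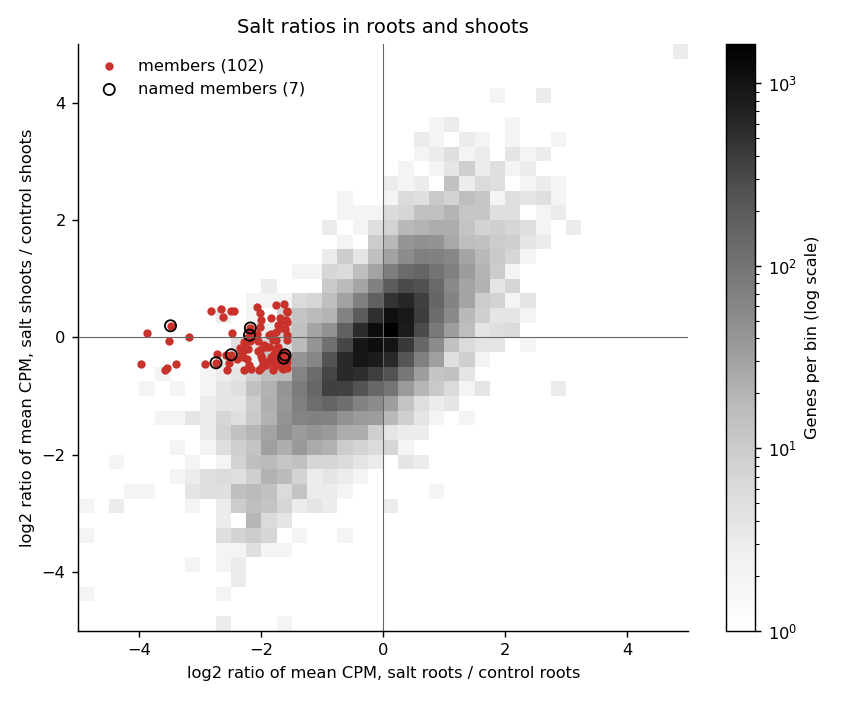
Ratio of mean CPM with salt to mean CPM without salt in roots (x axis, log2) and shoots (y axis, log2). Grey squares give the number of genes per bin among the 27688 genes at 5 CPM or more in both control tissues, with ratios beyond the axes drawn in the outermost bins, red points are the 102 selected genes, and black rings mark the 7 named ones; the red points lie in the band near 0 on the y axis, above most of the genes with as low a root ratio.

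The size of the fall in roots varied among the selected genes. The ratio of means ran from 0.0635 to 0.333 with a median of 0.256, and 53 genes had a ratio above 0.25, of which 9 were exactly at the limit. A fall of 5-fold or more was seen in 24 genes and of 10-fold or more in 7. Mean levels in control roots ran from 5 to 499 CPM with a median of 24.8 CPM, and in salt roots from 1 to 125 CPM with a median of 5.33 CPM. In salt roots 47 genes had a mean under 5 CPM and 15 under 2 CPM, where a value rounded to a whole number is coarse. CPM is not corrected for gene length, so levels are compared here between libraries and not between genes.

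In shoots, the ratio of means of the selected genes ran from 0.676 to 1.49 with a median of 0.857. It was below 1 for 68 genes, above 1 for 31 and equal to 1 for 3, so that 66.7% were below 1. Among all 18076 genes with control means of 5 CPM or more and a shoot ratio between 0.67 and 1.5, the median was 1 and 48.8% were below 1. The selected genes therefore lay on the lower side of the band more often than other genes in it, although no test is made of this. Every salt shoot library was below every control shoot library for 14 of the 102 genes (13 of them unnamed) and above for 7, and for the other 81 the libraries overlapped. Over all 49928 genes tested, the shares with such a gap in shoots were 25.8% below and 25.2% above.

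All 102 genes had every salt root library below every control root library, as did 23.5% of all genes tested. In a limma model on log2(CPM + 0.5), with an adjusted p of at most 0.05 and a log2 change above 1 in size, all 102 were called lower in salt roots (7.85% of all genes tested), and none was called in shoots, where 8.87% of all genes tested were called lower and 10.8% higher. In shoots, 21 of the 102 had an unadjusted limma p under 0.05, a looser cut than that of the calls. No share over all genes is given at this cut. The root change was called below the shoot change for 89 of the 102 (6.25% of all genes tested). These counts follow from how the genes were chosen and nothing is read from them.

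The single libraries show how even the fall was. Relative to the control root mean, the median of the 102 genes was 0.206, 0.276 and 0.271 in salt roots 1 to 3, and 0.992, 0.931 and 1.07 in control roots 1 to 3. Salt root 1 held the lowest of the salt root values for 53 genes, and no share over all genes is given for this. It also had the highest Rubisco small chain level of the roots, 196 CPM against 72 and 108 CPM. Many of the genes that the study names as raised in salt roots were also highest in salt root 1. Csa10g015440 (RD26), for example, was at 48, 20 and 19 CPM in salt roots 1 to 3. Others of these genes were not highest there, such as Csa19g003320 (galactose mutarotase) at 344, 569 and 356 CPM. A relation between these levels was not tested. Relative to the control shoot mean, the median was 0.792, 0.851 and 0.962 in salt shoots 1 to 3. The median over all 27688 genes was between 0.960 and 0.975 in each of the 6 salt libraries. No selected gene was at 0 in any library.

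**Figure D2:**
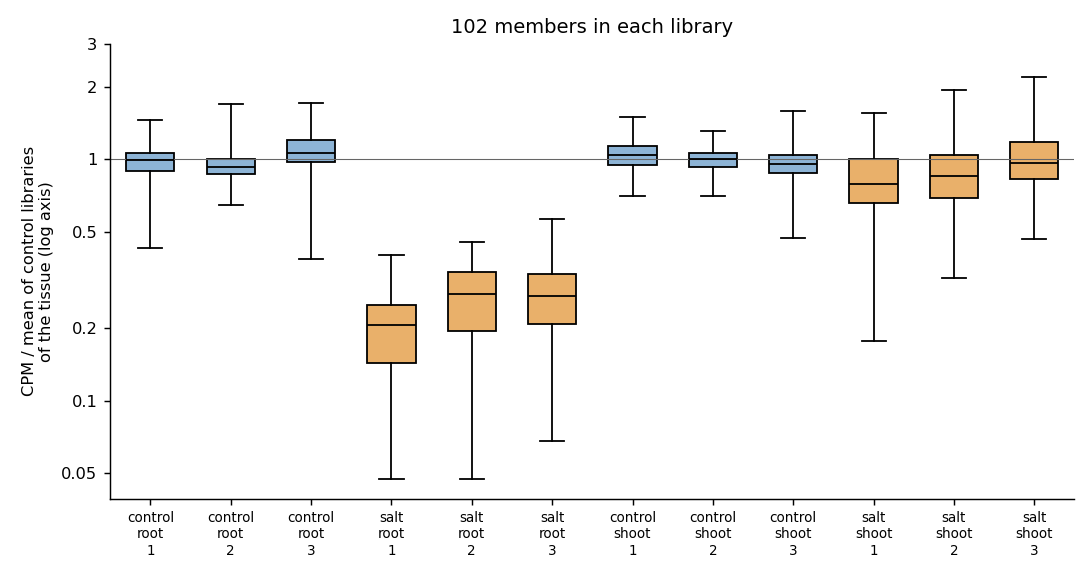
CPM of the 102 selected genes in each of the 12 libraries divided by the mean of the control libraries of the same tissue (log axis). Boxes give the quartiles and the median and whiskers the lowest and highest gene, with control libraries in blue and salt libraries in orange; salt root medians lie between 0.206 and 0.276 and salt shoot medians between 0.792 and 0.962.

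The selected genes differed more between replicates than other genes did. The median coefficient of variation over 3 replicates was 15.5% in control roots, against 7.81% for the 27688 genes, and 10.8% against 8.66% in control shoots. Among genes with a group mean of at least 5 CPM it was 24.7% against 10% in salt roots, over 55 selected genes. In salt shoots, with the same minimum, it was 20.9% against 10.4%, over 92 selected genes. The selected genes and the others were not matched by level, and low values rounded to whole numbers are coarse. The same libraries gave the means that chose the genes, so these values are given without a test.

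Near the limits, the selected genes closest to the root limit but not on it had ratios of 0.327 to 0.332, and the closest genes beyond it had ratios of 0.335 to 0.339. At the lower shoot limit the values were 0.676 to 0.679 inside and 0.667 outside, and at the upper shoot limit 1.44 to 1.49 inside and 1.502 to 1.512 outside. Genes just under the minimum had control means of 4.33 to 4.67 CPM. With each library left out in turn, the limits took 86 to 127 genes and kept 77 to 98 of the 102. In all 12 of these lists 42 of the 102 genes remained, including both CLC-B and both ESE3 copies. The SMT3 copies were each lost from 3 lists, and the ERF105 copy was lost without control shoot replicate 3.

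The 7 named genes cover anion transport, sterol synthesis and ethylene signalling. The study picked these names from the same libraries for their salt response, so the names are not independent evidence of a direction. Homeologues can be nearly identical, and how reads that fit several of them were shared is not stated in the sources used here, so levels of single copies are uncertain.

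**Figure D3:**
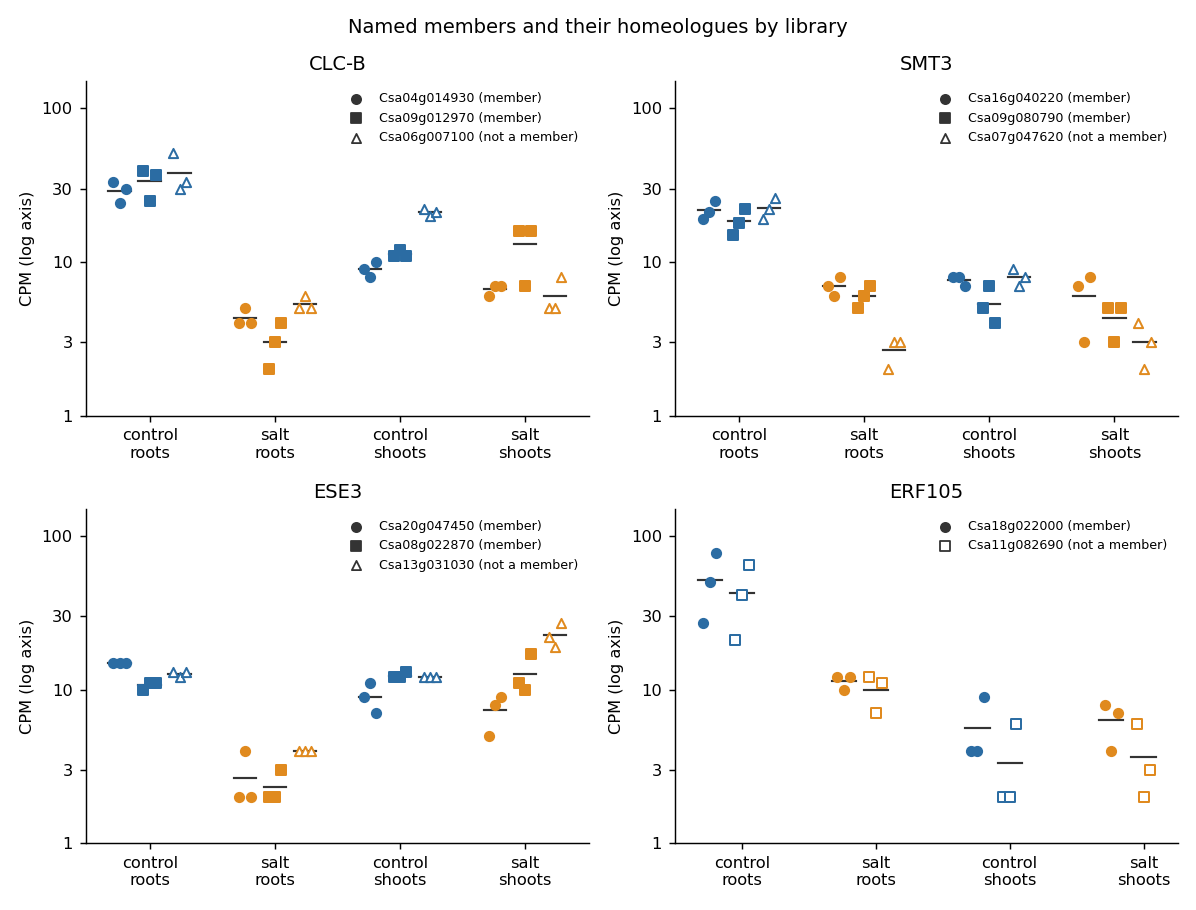
CPM (log axis) in each library of the named genes and of their homeologues, by tissue and treatment. Filled symbols are selected genes, open symbols homeologues that were not selected, each symbol is 1 library, short lines are group means, blue is control and orange is salt; the root levels of every copy are lower with salt, and the shoot ratios run from 0.286 to 1.15 for CLC-B and from 0.815 to 1.89 for ESE3.

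The largest falls among the named genes were those of CLC-B. The copy Csa09g012970 was at 39, 25 and 37 CPM in control roots and at 2, 3 and 4 CPM in salt roots. In control shoots it was at 11, 12 and 11 CPM and in salt shoots at 16, 7 and 16 CPM. The root groups were far apart, with a ratio of 0.0891, while the salt shoot libraries lay on both sides of the controls, with a ratio of 1.15. The copy Csa04g014930 was at 33, 24 and 30 CPM in control roots and at 4, 5 and 4 CPM in salt roots, a ratio of 0.149. Its shoot levels were 9, 8 and 10 CPM without salt and 6, 7 and 7 CPM with salt, a ratio of 0.741. This copy is 1 of the 14 genes whose salt shoot libraries were all below the control shoot libraries, although by less than the limit for a call.

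Both selected copies of SMT3 lay close to the root limit. Csa16g040220 was at 19, 21 and 25 CPM in control roots and at 7, 6 and 8 CPM in salt roots, and at 8, 8 and 7 CPM in control shoots and 7, 3 and 8 CPM in salt shoots. Csa09g080790 was at 15, 18 and 22 CPM in control roots and at 5, 6 and 7 CPM in salt roots, and at 5, 7 and 4 CPM in control shoots and 5, 3 and 5 CPM in salt shoots. For both, the root groups did not overlap and the shoot groups did, with root ratios of 0.323 and 0.327 and shoot ratios of 0.783 and 0.813. With salt, root levels of 5 to 8 CPM were in the range of the shoot levels, 3 to 8 CPM.

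ESE3, named in Arabidopsis for its induction by ethylene and salt, was lower in salt roots in both selected copies. Csa08g022870 was at 10, 11 and 11 CPM in control roots and at 2, 2 and 3 CPM in salt roots, while its shoot levels were 12, 12 and 13 CPM without salt and 11, 10 and 17 CPM with salt. Csa20g047450 was at 15 CPM in all 3 control root libraries and at 2, 4 and 2 CPM in salt roots, while its shoot levels were 9, 11 and 7 CPM without salt and 5, 8 and 9 CPM with salt. Root groups were apart and shoot groups overlapped in both, with root ratios of 0.219 and 0.178 and shoot ratios of 1.03 and 0.815.

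ERF105, whose Arabidopsis counterpart responds to cold and cytokinin, was the most variable of the named genes in control roots. Csa18g022000 was at 27, 50 and 77 CPM there and at 12, 10 and 12 CPM in salt roots. In shoots it was at 4, 4 and 9 CPM without salt and at 8, 4 and 7 CPM with salt. Even the lowest control root library was above every salt root library, the root ratio was 0.221, and the shoot ratio of 1.118 lies within groups that overlapped fully.

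Of the unnamed genes, the one with the lowest root ratio was Csa19g014390 on chromosome 19. It was at 19, 14 and 30 CPM in control roots and at 1, 1 and 2 CPM in salt roots, a fall of 15.8-fold, with the salt values at the smallest steps of the table. Its shoot levels were 21, 23 and 19 CPM without salt and 14, 12 and 20 CPM with salt. The highest level in control roots was that of Csa05g016720 on chromosome 5, at 608, 581 and 309 CPM, and in salt roots it was at 117, 94 and 163 CPM. Its shoot levels were 20, 16 and 16 CPM without salt and 24, 17 and 23 CPM with salt. The third control root library was well below the other two for this gene, yet above all salt root libraries.

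The 10 lowest root ratios ran from 0.0635 to 0.142 and included 1 named gene, a CLC-B copy. A further gene of these went from 12, 13 and 19 CPM in control roots to 1 CPM in each salt root library, and in shoots from 17, 18 and 17 CPM to 18, 7 and 30 CPM. Another went from 35, 38 and 54 CPM to 4, 4 and 6 CPM in roots, and its shoot libraries, at 38, 41 and 35 CPM without salt and 30, 46 and 38 CPM with salt, gave a ratio of 1. In both, the steady shoot mean covers salt libraries on either side of the controls.

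Control roots against control shoots is the comparison that the salt ratios did not use, although the control libraries also enter those ratios and the minimum of 5 CPM. A high control root level favours a low root ratio, so the shares and the adjusted p values for the selected genes in this comparison are not independent of the choice and are read as a description. In the limma model, 31 of the 102 genes (30.4%) were higher in control roots, 14 (13.7%) were higher in control shoots and 57 (55.9%) were called in neither direction. Over all genes tested 15.3% were higher in roots and 17.0% in shoots. Over the 27688 genes expressed in both tissues the shares were 8.18% and 8.30%. The share of selected genes higher in roots was above both backgrounds, and the share higher in shoots was above that of the genes expressed in both tissues and below that of all genes tested. All 45 called genes had tissue groups that did not overlap. No share over all called genes is given for this, so nothing is read from it.

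**Figure D4:**
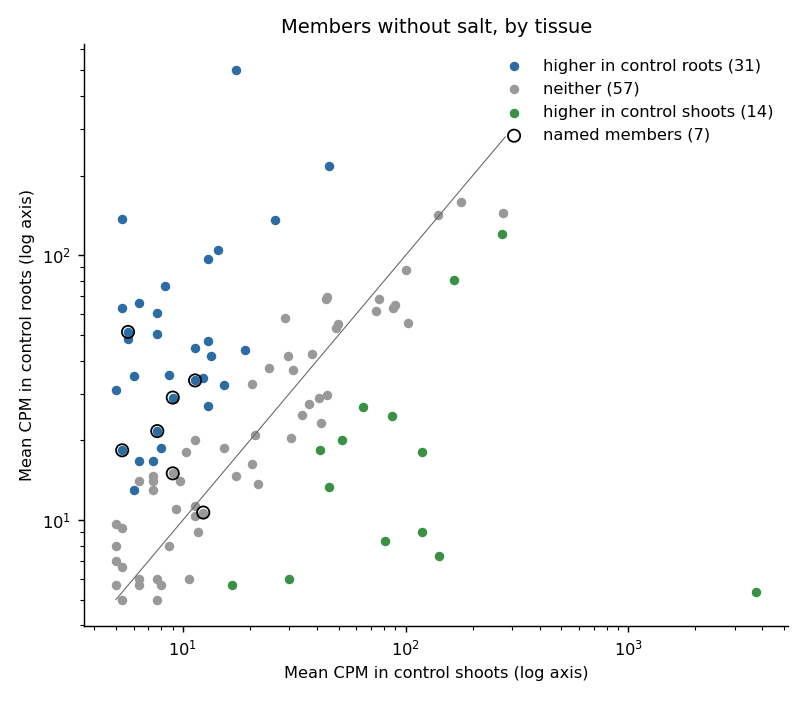
Mean CPM of the 102 selected genes in control shoots (x axis) and control roots (y axis), both on log axes, with the line of equal levels. Blue points are the 31 genes higher in control roots, green points the 14 higher in control shoots, grey points the 57 in neither class, and black rings the 7 named genes, of which 5 are blue and 2 grey.

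Among the named genes, ERF105 had the widest tissue difference. Csa18g022000 was higher in control roots by 3.04 ± 0.38 on the log2 scale (SE, adjusted p = 2.84e-05 by limma with Benjamini-Hochberg adjustment, higher in all 3 root libraries). CLC-B was higher in control roots by 1.63 ± 0.14 for Csa04g014930 (limma adjusted p = 9.37e-07) and by 1.505 ± 0.304 for Csa09g012970 (limma adjusted p = 0.00108). SMT3 was higher in control roots by 1.43 ± 0.27 for Csa16g040220 (limma adjusted p = 0.000652) and by 1.71 ± 0.23 for Csa09g080790 (limma adjusted p = 5.4e-05). For each of these 5 genes the lowest control root library was above the highest control shoot library.

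The ESE3 copies were in neither class. Csa08g022870 differed between the control tissues by -0.20 ± 0.19 on the log2 scale (limma adjusted p = 0.373), with every root library below every shoot library. Csa20g047450 was higher in control roots by 0.73 ± 0.26 (limma adjusted p = 0.0287), which is below the limit of 1 for a call. Without salt, the ESE3 copies were thus closer to equal in both tissues than the other named genes.

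The unnamed Csa05g016720 was higher in control roots by 4.75 ± 0.26 on the log2 scale (limma adjusted p = 1.73e-08), the largest difference of the 31 genes. For Csa19g014390 the difference was -0.06 ± 0.28 (limma adjusted p = 0.867), and its tissue groups overlapped. The genes with the lowest root ratio and with the highest root level thus stood in different tissue classes.

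The 31 genes higher in control roots differed between the tissues by 1.02 to 4.75 on the log2 scale with a median of 1.99. Their median level was 44 CPM in control roots and 9.33 CPM in salt roots, against 8.33 CPM in control shoots and 7.67 CPM in salt shoots. The median root ratio was 0.258.

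The 14 genes higher in control shoots differed by -1.03 to -9.47 with a median of -1.80. Their median level was 15.7 CPM in control roots and 4 CPM in salt roots, against 83.8 CPM in control shoots and 89.5 CPM in salt shoots. The median root ratio of this class was 0.303. Its median shoot ratio was 0.828, so the higher median level in salt shoots was not a rise of most of these genes. The most extreme gene was at 3979, 3406 and 3898 CPM in control shoots and at 4, 9 and 3 CPM in control roots, a log2 difference of -9.47 (limma adjusted p = 4.42e-10). With salt it was at 2413, 3760 and 1988 CPM in shoots and at 2, 1 and 2 CPM in roots, so its root ratio of 0.313 rests on values of a few CPM.

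The 57 genes in neither class had a median level of 18 CPM in control roots and 17.3 CPM in control shoots. With salt their median was 4 CPM in roots and 15.3 CPM in shoots. The median root ratio was 0.25, and it lay between 0.0635 and 0.333.

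The order of the tissues changed with salt. Without salt the root mean was above the shoot mean for 58 of the 102 genes and below it for 42, with 2 equal. With salt the root mean was above for 18 and below for 84, and 40 genes went from above to below. The median ratio of the root mean to the shoot mean was 1.199 without salt and 0.358 with salt. A shift of this kind follows from the limits set on both ratios and is given as a description.

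The named genes had homeologues that were not selected. There were 4 such genes, a copy each of CLC-B, SMT3, ESE3 and ERF105. Each was named by the study as changed by salt in these libraries, and may share reads with its selected copies, so that their tests in roots are not independent of the study's choice. The CLC-B, SMT3 and ESE3 copies met the root limit and the minimum and were left out by their shoot ratio alone. Their shoot values, their difference between the tissues and their contrast with the selected copies were thus set by the limits and are given as a description. All 4 were lower in salt roots, where 7.85% of all genes tested were called lower and 8.22% higher.

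**Figure D5:**
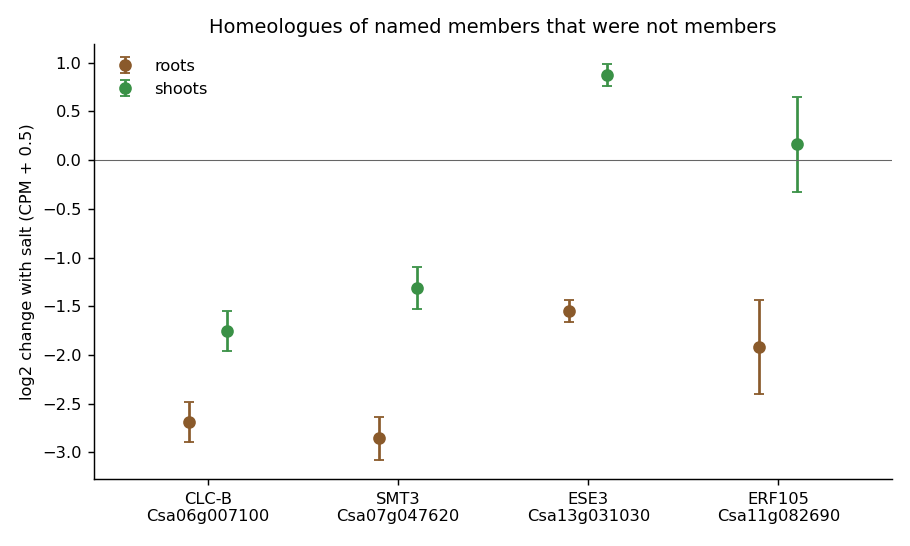
Log2 change with salt in roots (brown) and shoots (green) of the 4 homeologues that were not selected, from the limma model on log2(CPM + 0.5), with error bars of 1 SE (3 libraries per group). All 4 root changes lie between -1.55 and -2.86, and the shoot changes run from -1.76 for CLC-B to 0.88 for ESE3.

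The third CLC-B copy, Csa06g007100, was at 51, 30 and 33 CPM in control roots and at 5, 6 and 5 CPM in salt roots. In shoots it went from 22, 20 and 21 CPM to 5, 5 and 8 CPM. Its level was lower in both tissues, by 2.69 ± 0.21 on the log2 scale in roots (limma adjusted p = 2.93e-06) and by 1.76 ± 0.21 in shoots. The root change minus the shoot change was -0.93 ± 0.29. Its shoot ratio of 0.286 kept it out, while the selected copies had shoot ratios of 0.741 and 1.15.

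The third SMT3 copy, Csa07g047620, was at 19, 22 and 26 CPM in control roots and at 2, 3 and 3 CPM in salt roots. In shoots it went from 9, 7 and 8 CPM to 4, 2 and 3 CPM, with no overlap in either tissue. The log2 change was -2.86 ± 0.22 in roots (limma adjusted p = 2.9e-06) and -1.31 ± 0.22 in shoots. The root change minus the shoot change was -1.54 ± 0.31. Its root ratio was 0.119, against 0.323 and 0.327 in the selected copies, and its shoot ratio was 0.375, against 0.783 and 0.813.

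The third ESE3 copy, Csa13g031030, was at 13, 12 and 13 CPM in control roots and at 4 CPM in each salt root library. In shoots it was at 12 CPM in each control library and at 22, 19 and 27 CPM with salt. It fell by 1.55 ± 0.11 on the log2 scale in roots (limma adjusted p = 2.16e-06), and in shoots the difference was 0.88 ± 0.11. The root change minus the shoot change was -2.42 ± 0.16. All 3 copies were lower in salt roots, and in shoots this copy alone had every salt library above every control library.

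The other ERF105 copy, Csa11g082690, had a control shoot mean of 3.33 CPM and so missed the minimum. It was at 21, 41 and 65 CPM in control roots and at 12, 7 and 11 CPM in salt roots, and in shoots at 2, 2 and 6 CPM without salt and 6, 2 and 3 CPM with salt. Its control root libraries stood in the same order as those of Csa18g022000, with replicate 3 highest in both. It fell by 1.92 ± 0.49 on the log2 scale in roots (limma adjusted p = 0.00729), and in shoots the difference was 0.16 ± 0.49 (limma adjusted p = 0.819). The difference between the tissues was -2.08 ± 0.69 (limma adjusted p = 0.048), and this call was lost in 9 of the 12 fits with 1 library left out, with an adjusted p between 0.0235 and 0.115.

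Other genes discussed for the same processes showed mixed directions. Of 6 other brassinosteroid and sterol genes tested, 3 were called lower and 1 higher in salt roots, and 5 lower and 1 higher in salt shoots. The 3 lower in roots were the SMT3 copy above and a pair of genes encoding BRS1, a brassinosteroid signalling component, and these 3 were also lower in shoots. Of 21 other ethylene genes, 6 were lower and 6 higher in roots, and 4 were lower and 13 higher in shoots. The 6 lower in roots were the ESE3 and ERF105 copies above, which were not called in shoots, and 3 ERF106 copies and ACC oxidase 1, an enzyme that makes ethylene, which were called lower in shoots as well. Of 31 other ion transport genes, 3 were lower and 22 higher in roots, and 6 lower and 19 higher in shoots. The 3 lower in roots were the CLC-B copy above, the sodium/proton exchanger NHX4 and the nitrate transporter NRT1, all of which were also called lower in shoots. Of the IDs listed, 8 of 10 were tested for brassinosteroids and sterols, 24 of 26 for ethylene and 33 of 40 for ion transport. The brassinosteroid genes without values are copies of brassinosteroid-6-oxidase 1. The study reports these copies as lower in roots, so genes of this topic lowered in roots alone may be missing here. The ion transport genes without values include 3 copies of the iron-regulated transporter IRT1, reported by the study as lower in roots. They also include an organic cation transporter reported as higher, so the counts are incomplete. Since the study chose these genes by their response in the same libraries, the counts are no independent evidence of a direction.

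The selected genes were spread over the genome. They lay on 19 of the 20 chromosomes, with 10 on chromosome 11, 9 each on chromosomes 15, 19 and 20, none on chromosome 3 and 1 on a scaffold. As a share of the genes at 5 CPM or more in both control tissues, this ran from 0% on chromosome 3 to 0.709% on chromosome 19. By the order of the gene IDs no selected genes were neighbours. The smallest step between a pair of them was 6 listed genes, and 4 pairs were within 10 listed genes of each other.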

How the data were processed

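RNA of 12 libraries was measured, 3 in each of 4 groups. The labels give polyA RNA for each, and both TruSeq Stranded mRNA and Total RNA kits are named without saying which library used which. Reads were trimmed with Trimmomatic and mapped with STAR by the authors, who scaled counts by library size to CPM, normalized them further with DESeq and ran edgeR for their own comparisons. No versions of these tools are given. The deposited values are a score, CPM rounded to whole numbers. They sum to between 882288 and 938888 in the root libraries and to between 1077479 and 1117956 in the shoot libraries. Every root library thus sums to less than every shoot library. As the deposited values are not counts, no count model was fitted, sequencing depth is unknown here, and small values are coarse. Columns were matched to samples by the names in the labels.

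Members were found from ratios of group means. Members and gene lists were chosen with earlier results of these data known. A single limma 3.58.1 model (R 4.3.3) with a mean-variance trend was fitted to log2(CPM + 0.5) of the 4 groups, keeping the 49928 genes that reached 1 CPM in 3 or more libraries. It had 8 residual degrees of freedom, to which the prior added a median of 3.23. Changes on this scale understate those of low genes. A call required a log2 difference above 1 in size and an adjusted p (Benjamini-Hochberg, all genes tested) no higher than 0.05. For 3 against 3 libraries, the smallest p of an exact permutation test is 0.1. Other steps used Python 3.11.15 with pandas 2.3.3.

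Genes named in the text are the members that the study names, their homeologues that were not selected, the members with the lowest root ratio and the highest control root level, and the study's genes of the same topics. Members nearest the limits are given as values. The RefSeq gene table matched 0 of the IDs, so no product name, gene coordinates or sequence was taken from it. Alternatives were other pseudocounts, filters and scalings, the control libraries alone, a replicate block, leaving out each library, and other limits for membership. Those for the shoot change and the tissue difference of the homeologues were added after seeing the data.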

Additional observations from a re-analysis of the deposited data

Results flagged for a closer look

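For 3 homeologues that were not selected, the salt effect differed between roots and shoots in the limma interaction test. The log2 root change minus the log2 shoot change was -2.42 for the ESE3 copy Csa13g031030, -1.54 for the SMT3 copy Csa07g047620 and -2.08 for the ERF105 copy Csa11g082690. The ESE3 and SMT3 copies were kept out of the selection by their shoot ratios alone, so their differences are given as a description. For the ESE3 copy, each salt root library was below each control root library and each salt shoot library above each control shoot library. For the SMT3 copy both tissues were lower with salt. For the ERF105 copy the limma adjusted p was 0.048, the call was lost in 9 of the 12 fits with 1 library left out (adjusted p 0.0235 to 0.115), and the shoot values were 2 to 6 CPM.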

How the results depend on the processing

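The number of members depended on the limits: 49 genes with a root ratio of 0.25 or less, 442 with 0.5 or less, 51 with narrower shoot limits (from 0.8 to its inverse) and 56 with a control mean of 10 CPM or more, against 102. It was 108 with ratios of medians, 92 with median-of-ratios scaling, 121 with quantile normalization and 86 to 127 with 1 library left out (fewest without salt root replicate 1, most without salt root replicate 2). Of the 102, 73, 89 and 97 remained under the first 3 of these.

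Members higher in control roots numbered 29 to 36 and higher in control shoots 12 to 14 over all alternatives. With 1 library left out, 99 to 102 members were called lower in roots, 0 to 1 in shoots (1 without salt shoot replicate 3), and 83 to 91 in the interaction, and 15714 to 16164 genes were called between the control tissues. The tissue calls of the named members and the root falls of the 4 homeologues kept their side of the threshold and their direction in every alternative run. The interaction of the ERF105 copy was lost without any 1 library other than control root replicate 1, control shoot replicate 3 or salt shoot replicate 2 (-2.54 to -1.70 over all 12). That of the CLC-B copy, just under the limit, passed it in 4 of the 12 fits (-1.08 to -0.70).

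Labels give the groups the same replicate numbers, and 3 of 18 same-numbered pairs had a correlation of deviations over 0.1 (-0.18 to 0.35). Roots and shoots of the same treatment could share plants, which the sources used here do not state. For these, same-numbered correlations were 0.027 to 0.088 without salt and 0.070 to 0.346 with salt. With 3 replicates this cannot decide whether the libraries are paired, and the main model treats them as independent. With the replicate block, 31 members were higher in control roots, 14 higher in control shoots, 102 lower in salt roots, 0 changed in shoots and 90 were called in the interaction, and 16145 genes differed between the control tissues. Values of a few CPM, rounded to whole numbers, limit the precision in salt roots.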
